A study of Mus musculus with 4 samples.

Results

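Transcripts of 29 lysosomal genes were followed in leukocytes sorted by surface CD45 from the spinal cord of C57BL/6 mice in which experimental autoimmune encephalomyelitis (EAE), an immune attack on myelin, had been induced. The genes were taken by symbol from the 32285 genes listed in the count matrices, as a fixed list and not by a threshold on measured values. That list was chosen with earlier results of these data known. It comprises 27 genes for lysosomal membrane proteins, hydrolases, lipid-handling proteins and proton pump subunits, and 2 transcription factor genes, Tfeb and Mitf. All mice had EAE. On day 9 after immunisation they received either Ctrl MO or Reg1-MOs by the intracranial route, and cells were taken on day 16, giving 2 Ctrl and 2 Reg1-MO libraries. The labels spell out neither name; MO is taken to mean morpholino and Reg1 to mean Regnase-1, encoded by Zc3h12a. Age and sex, and the number of mice behind a library, are not in the labels, so p-values measure only the spread between these libraries, which may be technical. Before sorting, collagenase D was used to free the cells and a Percoll step to clear myelin.

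Lysosomes are the acidic organelles in which phagocytes degrade what they engulf. The V-ATPase pumps protons into them, hydrolases then cut proteins, glycans and lipids, and NPC1 and NPC2 export the released cholesterol. In EAE, microglia and recruited macrophages take up myelin debris, which is rich in cholesterol and sphingolipids. TFEB and MITF are related transcription factors known to switch on lysosomal genes.

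Both factors bind DNA at E-box motifs with the letters CACGTG, of which TCACGTGA is a stricter form that contains it, and both motifs read the same on either strand. RefSeq promoters (GRCm38.p6, 250 bases before to 50 bases after the gene start) were matched for 25 of the 29 genes; Npc1, Asah1, Atp6v0d2 and Atp6v1b2 had no entry. CACGTG was found in 7 of these 25 genes (28%), namely Atp6v0d1, Atp6v1a, Gaa, Glb1, Lamp1, Lgmn and Mcoln1, and in 8.09% of all 27025 genes with a promoter. TCACGTGA was found in 3 of the 25 (12%) and in 1.12% of all genes. Lamp1 carried 4 copies of CACGTG. The following windows of 28 bases show the motif in capitals for the 3 genes with the stricter form, for the Lamp1 copy nearest the gene start and for Lgmn, each 5′ to 3′ on the strand of the gene. Lamp1 and Lgmn are shown because they are abundant in the cells described.
Atp6v0d1, chr8:105566051-105566078, minus strand: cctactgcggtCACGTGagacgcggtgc
Atp6v1a, chr16:44139374-44139401, minus strand: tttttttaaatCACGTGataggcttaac
Mcoln1, chr8:3500463-3500490, plus strand: ggcgccccgctCACGTGaccgcggcgca
Lamp1, chr8:13159135-13159162, plus strand: cgtgaccacatCACGTGcggaacggagc
Lgmn, chr12:102439125-102439152, minus strand: ggaatgtctgtCACGTGgtccattttat
A match describes letters in the window and is not evidence of binding. Gene starts here are those of RefSeq. The gene coordinates printed further below come from the GENCODE annotation, whose starts can differ. By that annotation the Lgmn, Atp6v1a and Mcoln1 windows lie inside the gene.

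Cells were clustered without lysosomal genes and named from marker genes, with "-like" added because names rest on transcripts. The libraries held 75472324 to 174552218 UMIs (unique molecular identifiers, each marking 1 captured transcript), and 26853 of 29379 barcodes were used; 181 barcodes occurred in more than 1 library. Of 28 clusters 6, with 3610 cells, stayed unnamed, among them 2 deep ones (median 57691 and 33825 UMIs per cell) that mixed microglia with macrophage or neutrophil genes. The microglia-like class was divided by library: 481 of its 512 cells in Ctrl 2 lay in a cluster with 6 to 9 cells in each other library. Its 10 microglia markers summed to 2692 to 6162 CPM (UMIs of a gene scaled to a common total per library and class), against 77.5 to 152 CPM in macrophage-like cells. Zc3h12a was not called in any of the 5 classes tested. In macrophage-like cells it stood at 49.3 and 59.7 CPM in Ctrl and 47.9 and 48.2 CPM in Reg1-MO libraries (log2 fold change -0.15 ± 0.13, SE, edgeR adjusted p = 0.557). The log2 fold change was -0.51 ± 0.34 in microglia-like (edgeR adjusted p = 0.651) and 0.47 ± 0.13 in neutrophil-like cells (edgeR adjusted p = 0.122). It was 0.14 ± 0.24 in conventional dendritic-like (edgeR adjusted p = 0.84) and -0.002 ± 0.09 in T-like cells (edgeR adjusted p = 0.993).

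Among the 5 classes tested, the 29 genes took their largest share of transcripts in microglia-like and macrophage-like cells. In microglia-like cells they made up 1.88% and 1.90% of UMIs in the Ctrl libraries, and 1.91% and 1.63% with Reg1-MO. In macrophage-like cells the Ctrl libraries gave 1.54% and 1.78%, and the Reg1-MO libraries 1.47% and 1.27%. The ranges of these classes overlapped across libraries, but microglia-like cells were higher within each library. Conventional dendritic-like cells followed at 0.591% to 0.667%, then neutrophil-like cells at 0.266% to 0.301% and T-like cells at 0.133% to 0.147%. This order of the 5 classes held in 4 of 4 libraries, and the last 3 did not overlap. The order of the first 2 depended on the clusters included. With the deep mixed-marker clusters added, microglia-like cells of Ctrl 2 had 1.77%, below the 1.78% of macrophage-like cells. Without the Vcan cluster described below, macrophage-like cells of Ctrl 2 had 2.01%, above the 1.90% of microglia-like cells. In each other library microglia-like cells stayed higher under either change. Of the named clusters outside the 5 classes, plasmacytoid dendritic-like cells had 0.770% to 0.861% and migratory dendritic-like cells 0.450% to 0.509%.

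**Figure D1:**
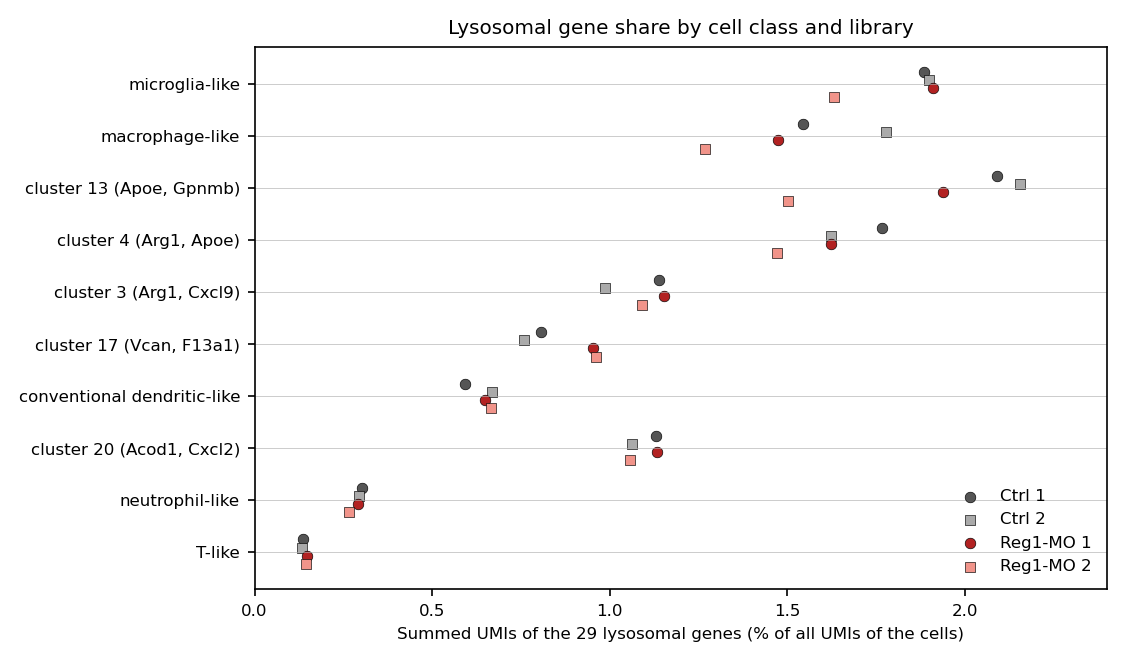
Share of all UMIs taken by the 29 lysosomal genes (x axis, percent) in each class or cluster (rows), with 1 symbol per library (Ctrl and Reg1-MO in different colours). Reg1-MO libraries lie below both Ctrl libraries in macrophage-like cells, in the Gpnmb cluster and in neutrophil-like cells. They lie above both in the Vcan cluster and in T-like cells.

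Macrophage-like cells were not uniform. The class held 4 clusters, called here by leading genes. In the Gpnmb cluster (cluster 13, led by Apoe and Gpnmb) the lysosomal share was 2.09% and 2.16% in Ctrl, with Reg1-MO values of 1.94% and 1.50%. The Arg1/C1q cluster (cluster 4, led by Arg1, Apoe and C1qb) had 1.77% and 1.62% in Ctrl, then 1.62% and 1.47%. The Arg1/Cxcl9 cluster (cluster 3) ranged over 0.986% to 1.15% in the 4 libraries. The Vcan cluster (cluster 17, led by the monocyte genes Vcan and F13a1) was lowest, with 0.805% and 0.758% in Ctrl and 0.952% and 0.960% in Reg1-MO libraries. Between the extremes, 6 of 29 genes were over 2-fold higher in the Gpnmb than in the Vcan cluster in every library, where 5.23% of all genes compared were: Cd68, Cd63, Grn, Lgmn, Tpp1 and Mitf. None of the 29 was over 2-fold lower in every library, where 4.95% of all genes were. Class against class is a description, since the classes came from clustering the same cells.

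Among classes, 26 of 29 genes were over 2-fold higher in macrophage-like than in T-like cells in every library (14% of all genes compared), and 24 of 29 in microglia-like than in T-like cells (15.9%). Against neutrophil-like cells, 20 of 29 were higher in macrophage-like cells (33.2%). Between microglia-like and macrophage-like cells, Lgmn and Cd63 were over 2-fold higher in the former in every library (8.55%) and Atp6v0d2 was lower (6.63%). Lgmn encodes legumain, an asparaginyl endopeptidase. It stood at 4133 and 3049 CPM in Ctrl and 4195 and 4119 CPM in Reg1-MO microglia-like cells, 3.24 to 6.88 times its macrophage-like level. Cd63, a tetraspanin of late endosomes and lysosomes, was 2.21 to 5.32 times as high.

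**Figure D2:**
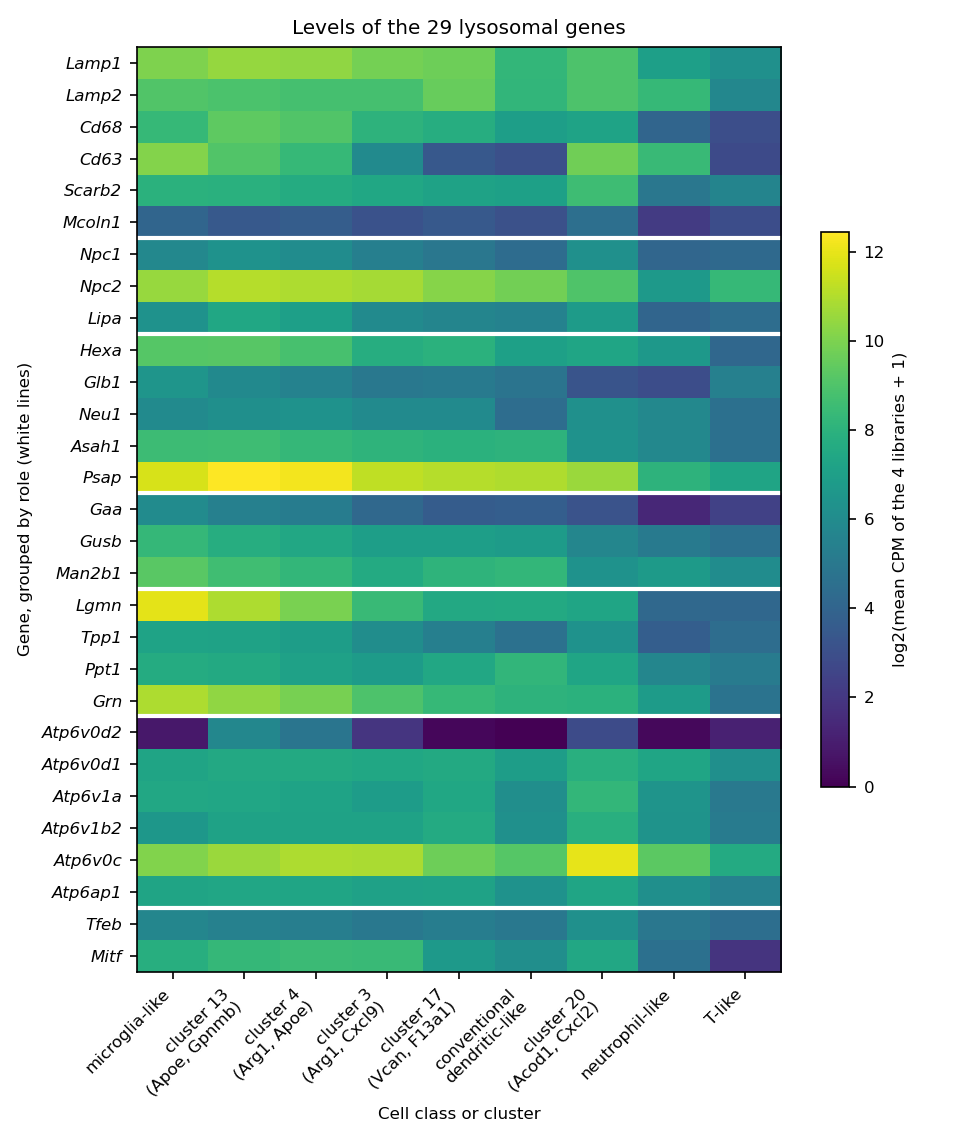
Level of each of the 29 genes as log2(mean CPM of the 4 libraries + 1) (colour), by class or cluster (columns), with the genes grouped by role (rows). Lgmn and Cd63 are at their highest in microglia-like cells, and Atp6v0d2 stands out from the lowest colours in clusters 13 and 4, more weakly in clusters 20 and 3.

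Atp6v0d2, the d2 subunit of the V-ATPase known from osteoclasts and macrophages, had the narrowest range of cells. It was at 27.3 and 105 CPM in Ctrl macrophage-like cells, but at 0.389 to 1.27 CPM in microglia-like cells. T-like cells, which should lack it, had 0.772 to 1.52 CPM, so the microglia-like level was within this background. Conventional dendritic-like cells had no UMI, which allows 0.61 to 2.73 CPM by library (3 counts of the total; such limits cover counting error only). Its paralog Atp6v0d1 was more even, at 162 to 207 CPM in macrophage-like, 126 to 191 CPM in microglia-like and 65.1 to 79.4 CPM in T-like cells. Mitf was at 285 to 364 CPM in macrophage-like and 1.53 to 3.62 CPM in T-like cells. Tfeb was at 29.8 to 48.0 CPM and 19.8 to 22.2 CPM.

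A cluster led by Acod1, Cxcl2 and Il1b carried more lysosomal transcripts than neutrophil-like cells. Its best-scoring list was neutrophil (0.759, with 12 markers detected). It was left unnamed because its depth was low (median 3051 UMIs per cell) and no neutrophil marker was among its leading genes. That rule was added after the clusters were seen. Its lysosomal share was 1.06% to 1.13% in the 4 libraries. In every library 14 of 29 genes were over 2-fold higher than in neutrophil-like cells (16.3% of all genes compared), and 3 were too low to count. Scarb2, the receptor that carries glucocerebrosidase to lysosomes, was 8.92 to 17.1 times as high. Atp6v0c, the proteolipid of the pump's membrane ring, was at 3675 and 2883 CPM in Ctrl and 4593 and 4962 CPM with Reg1-MO, against 592 to 708 CPM in neutrophil-like cells. Atp6v0c has near-identical copies in the genome, so its counts are uncertain. Man2b1, lysosomal alpha-mannosidase, was at 0.551 to 1.01 times the neutrophil-like level.

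Reg1-MO and Ctrl libraries were then compared within macrophage-like cells. Most lysosomal genes lay lower with Reg1-MO, and none passed the test. Of 29 genes tested, 25 had a log2 fold change below 0, with a median of -0.27. Over all genes the median was -0.01 and 48.4% lay above 0. On normalised CPM, 20 of 29 were lower in both Reg1-MO libraries than in either Ctrl library (30.1% of all genes) and 3 were higher (28.4%). With edgeR's quasi-likelihood test 0 of 29 were called at an adjusted p under 0.05, and 0% of all 13126 genes. Without adjustment, 5 were lower at p under 0.05 (9.35% of all genes) and 1 was higher (8.71%), while DESeq2 called 2, Atp6v0d2 and Cd63. With edgeR 9 of 29 were called without Ctrl 1, where 18.2% of all genes were, and 1 without Ctrl 2 (1.12%). A fit without a library has an arm of 1 library, which is assumed to vary like the other group, here and wherever a library is left out. The summed share was 1.66% ± 0.167 (SD, n = 2) in Ctrl and 1.37% ± 0.146 (SD, n = 2) with Reg1-MO (exact two-sided permutation p = 0.33, the smallest that 2 against 2 libraries allow).

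Among membrane proteins, Cd63 was at 266 and 665 CPM in Ctrl and 185 and 148 CPM with Reg1-MO (log2 fold change -1.45 ± 0.45, edgeR adjusted p = 0.24). The groups did not overlap, and the Ctrl libraries lay further apart than the Reg1-MO ones. Lamp1, the main glycoprotein of the lysosomal membrane, was at 1218 and 1505 CPM, then 1150 and 1055 CPM (-0.27 ± 0.17, edgeR adjusted p = 0.416), also without overlap. Among lipid-handling genes, Npc1 was at 66.9 and 75.6 CPM, then 55.4 and 41.9 CPM (-0.51 ± 0.18, edgeR adjusted p = 0.255), and did not overlap. Npc2 did overlap, at 1923 and 1558 CPM in Ctrl and 2070 and 1845 CPM with Reg1-MO (0.20 ± 0.17, edgeR adjusted p = 0.533). Psap, the precursor of the saposins that help degrade sphingolipids, was at 4273 and 6139 CPM, then 3995 and 3261 CPM (-0.49 ± 0.25, edgeR adjusted p = 0.344). Ctrl 2 was the highest library for Cd63, Lamp1, Npc1 and Psap.

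Among hydrolases, Man2b1 was at 297 and 380 CPM in Ctrl and 254 and 206 CPM with Reg1-MO (-0.52 ± 0.19, edgeR adjusted p = 0.267), and Lgmn at 1019 and 940 CPM, then 862 and 598 CPM (-0.39 ± 0.21, edgeR adjusted p = 0.373). Neither overlapped. Lipa, the acid lipase of cholesteryl esters, was at 98.9 and 198 CPM, then 89.5 and 83.2 CPM (-0.75 ± 0.34, edgeR adjusted p = 0.31), without overlap and with Ctrl 2 highest. Of the 6 pump genes, on normalised CPM 4 were lower in both Reg1-MO libraries (30.1% of all genes) and 2 higher (28.4%); Atp6ap1, 1 of the higher pair, overlapped on unscaled CPM, at 153.8 and 155.0 CPM in Ctrl and 154.8 and 155.2 CPM with Reg1-MO. Atp6v0c was one of the higher ones, at 1812 and 1400 CPM, then 1967 and 1883 CPM (0.29 ± 0.17, edgeR adjusted p = 0.395). The transcription factors lay in opposite directions, each without overlap. Mitf was at 306 and 285 CPM in Ctrl and 361 and 364 CPM with Reg1-MO (0.33 ± 0.12, edgeR adjusted p = 0.261). Tfeb was at 38.2 and 48.0 CPM, then 34.8 and 29.8 CPM (-0.38 ± 0.17, edgeR adjusted p = 0.304).

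**Figure D3:**
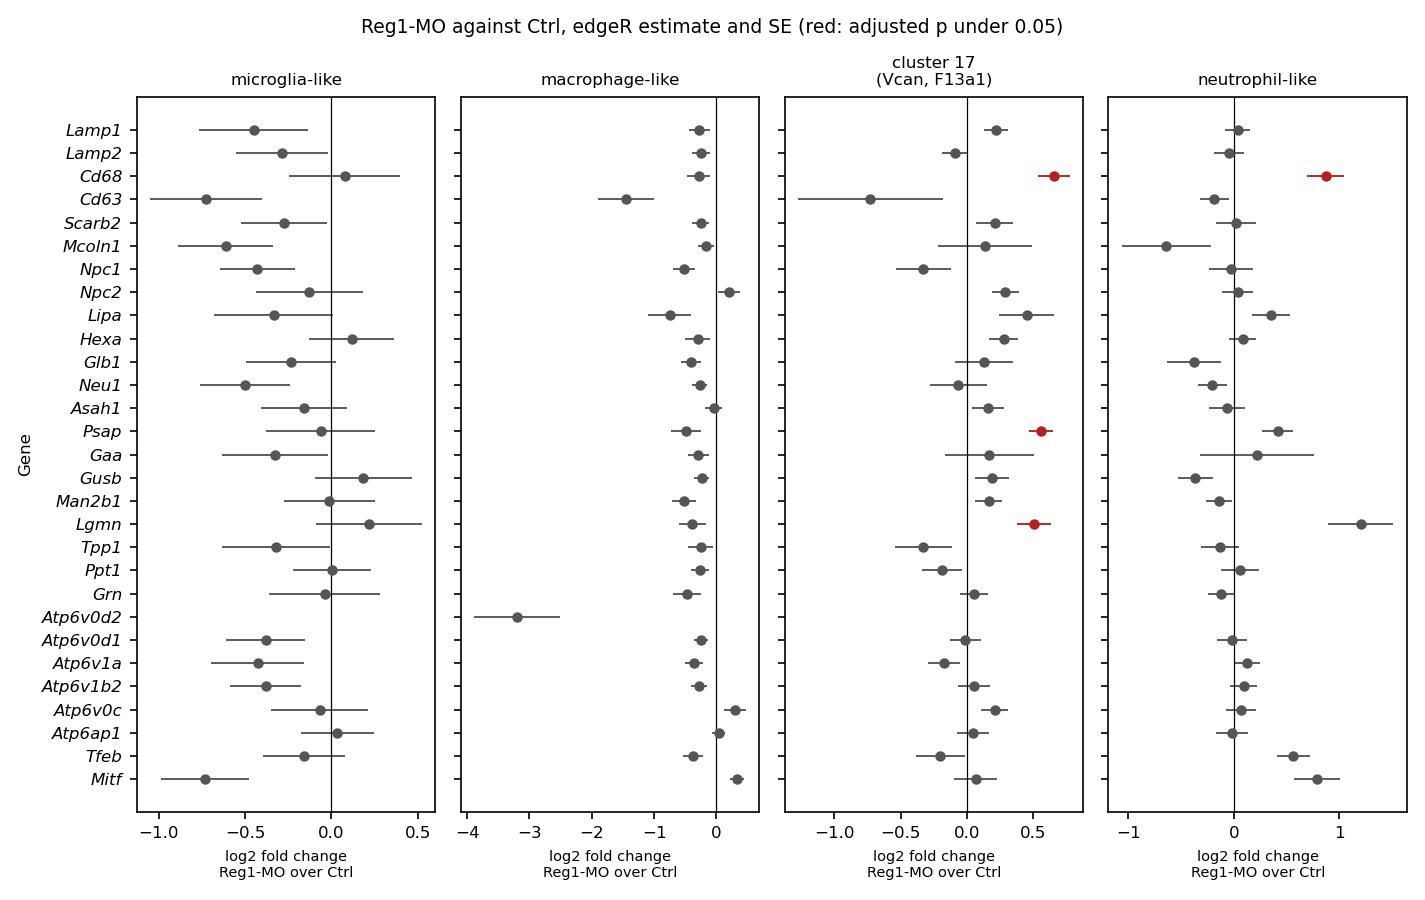
Log2 fold change of each gene, Reg1-MO over Ctrl (x axis, with its own scale in each panel), as the edgeR estimate with its SE, by class or cluster (panels); a gene not tested has no point. Red points have an adjusted p under 0.05; Atp6v0d2 is the leftmost point in macrophage-like cells, and Psap, Cd68 and Lgmn are red in the Vcan cluster.

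The make-up of the macrophage-like class moved with these values. The Gpnmb cluster, with the highest lysosomal share, held 202 of 1910 cells in Ctrl 1 and 744 of 1358 in Ctrl 2, but 176 of 2744 and 48 of 1115 in the Reg1-MO libraries. The Vcan cluster, with the lowest share, was also smaller with Reg1-MO, at 88 and 101 cells where Ctrl 1 had 352 and Ctrl 2 had 392. In the Arg1/Cxcl9 cluster there were 528 and 49 cells in Ctrl, but 1140 and 559 with Reg1-MO. The Arg1/C1q cluster held 828 and 173 cells in Ctrl, then 1340 and 407. With the 4 clusters weighted equally, the lysosomal share was 1.45% and 1.38% in Ctrl and 1.42% and 1.26% with Reg1-MO, a log2 ratio of group means of -0.08 in place of -0.28. On that weighting Cd63 gave -0.91 in place of -1.48, Psap -0.25 in place of -0.52 and Lgmn 0.20 in place of -0.42, while Atp6v0d2 gave -3.01 in place of -3.25. Without the Gpnmb cluster the median over the 29 genes was -0.10, and the share turned direction, at 0.0488 percentage points higher with Reg1-MO. Without the Vcan cluster the median was -0.39 and the difference in share -0.433 percentage points, in place of -0.291. The 12 neutrophil markers in macrophage-like cells summed to 1495 and 2055 CPM in Ctrl and 644 and 701 CPM with Reg1-MO. The 10 monocyte/macrophage markers summed to 16750 and 19780 CPM, then 8967 and 8617 CPM. Of these 10, 4 had a log2 fold change above 0 and 6 below (48.4% of all genes above 0). The part of both lists in the result was not tested.

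Atp6v0d2 (ENSMUSG00000028238, chromosome 4, 19876841 to 19922605, minus strand, GRCm38) had the lowest log2 fold change of the 29 genes in macrophage-like cells. It was at 27.3 and 105 CPM in Ctrl and 8.02 and 5.86 CPM with Reg1-MO, from 1065, 2639, 400 and 106 UMIs (-3.20 ± 0.69, edgeR adjusted p = 0.229). The groups did not overlap. With Ctrl 2 as the lone Ctrl library the value was -3.85 (edgeR adjusted p = 0.000266), and with Ctrl 1 alone -1.90 (edgeR adjusted p = 0.00964); both p rest on the spread of the 2 Reg1-MO libraries. Without the Gpnmb cluster it was -1.63 (edgeR adjusted p = 0.348).

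Within the Arg1/C1q cluster Atp6v0d2 fell. It was at 37.5 and 51.0 CPM in Ctrl and 11.2 and 12.1 CPM with Reg1-MO, without overlap (log2 fold change -1.88 ± 0.18, edgeR adjusted p = 0.0481). It was the 1 of 29 genes called there, where 0.0422% of 11861 genes were called lower. On normalised CPM, 2864 of all 11861 genes also lay lower without overlap. Without Reg1-MO 1 the call was lost (-1.83, edgeR adjusted p = 0.12). In the same cluster the 10 monocyte/macrophage markers summed to 13020 and 12400 CPM in Ctrl and 7316 and 6024 CPM with Reg1-MO. Of these 10, 4 had a log2 fold change above 0 and 6 below (49.4% of all genes above 0). The 12 neutrophil markers summed to 967 and 923 CPM, then 399 and 531 CPM. The part of both lists in the result was not tested. In the Gpnmb cluster Atp6v0d2 was at 47.9 and 154 CPM in Ctrl, at 10.2 CPM in Reg1-MO 1 and at 0 in the 48 cells of Reg1-MO 2, which allows up to 3.58 CPM. It was not called there (edgeR adjusted p = 0.18). In the Arg1/Cxcl9 cluster it was at 7.77 CPM and 0 (up to 3.34 CPM) in Ctrl and at 2.27 and 1.24 CPM with Reg1-MO, so the groups overlapped.

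The other genes of these clusters lay mostly below 0. In the Arg1/C1q cluster 25 of 29 were below 0 (median -0.24; 49.4% of all genes above 0). Atp6v0d1 there was at 195 and 217 CPM in Ctrl and 173 and 170 CPM with Reg1-MO (-0.24 ± 0.12, edgeR adjusted p = 0.475), and Cd63 at 350 and 455 CPM, then 242 and 250 CPM (-0.69 ± 0.16, edgeR adjusted p = 0.205). Neither overlapped. In the Gpnmb cluster 25 of 29 were also below 0 (median -0.29; 49.4% of all genes above 0). With edgeR 0 of 29 were called (0% of 9850 genes), 7 were lower at an unadjusted p under 0.05 (8.52% of all genes), and DESeq2 gave 0 calls. Without Ctrl 1 edgeR called 5 (9.18% of all genes), and without Ctrl 2 it called 1 (0.673%). Psap there was at 6177 and 7940 CPM in Ctrl and 4754 and 3369 CPM with Reg1-MO (-0.87 ± 0.25, edgeR adjusted p = 0.242). The microglia markers in that cluster summed to 297 and 89.3 CPM in Ctrl and 594 and 620 CPM with Reg1-MO, and the neutrophil markers to 791 and 818 CPM, then 258 and 336 CPM; their part in the result was not tested. In the Arg1/Cxcl9 cluster 19 of 29 were below 0 (median -0.10; 50.1% of all genes above 0). With edgeR 0 were called (0.0641% of 10918 genes), 3 were lower at an unadjusted p under 0.05 (6.92%), and DESeq2 gave 0 calls. Without Ctrl 1 edgeR called 7 (13.9% of all genes), and without Ctrl 2 it called 3 (6.67%).

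In the Vcan cluster the median lay above 0. There 3 of 28 genes tested rose (3.44% of 9370 genes were called higher) and 0 fell (3.28%), with 19 above 0 (49.9% of all genes) and a median of 0.13. Psap (ENSMUSG00000004207, chromosome 10, 60277627 to 60302597, plus strand) rose from 1742 and 1600 CPM in Ctrl to 2371 and 2679 CPM with Reg1-MO (log2 fold change 0.56 ± 0.09, edgeR adjusted p = 0.00304). Cd68 (ENSMUSG00000018774, chromosome 11, 69664213 to 69666153, minus strand), a sialomucin of macrophage lysosomes, rose from 178 and 148 CPM to 264 and 261 CPM (0.65 ± 0.12, edgeR adjusted p = 0.00691). Lgmn (ENSMUSG00000021190, chromosome 12, 102394084 to 102439813, minus strand) rose from 137 and 152 CPM to 225 and 198 CPM (0.50 ± 0.13, edgeR adjusted p = 0.0317). None of the 3 overlapped between groups. On normalised CPM, 2469 of all 9370 genes also lay higher without overlap, and 2546 lower.

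Psap had an edgeR adjusted p of at most 0.035 when each library was left out in turn, in fits with an arm of 1 library. Cd68 did not pass without Ctrl 2 (0.53, edgeR adjusted p = 0.107). Lgmn did not pass without Ctrl 1 (0.41, edgeR adjusted p = 0.191), Ctrl 2 (0.59, edgeR adjusted p = 0.0831) or Reg1-MO 1 (0.39, edgeR adjusted p = 0.152), nor with DESeq2 (0.51, adjusted p = 0.145). In the same cluster 10 of 11 neutrophil markers tested were called lower, and all 12 summed to 4373 and 7356 CPM in Ctrl and 1799 and 776 CPM with Reg1-MO. The 10 monocyte/macrophage markers summed to 37540 and 42830 CPM, then 17980 and 15990 CPM, but 3 of the 10 were called higher and 4 lower. The 10 microglia markers summed to 30.1 and 34.4 CPM, then 58.9 and 59.5 CPM, with 3 of 5 tested called higher and Sall1 at 0 in all 4 libraries. The part of these shifts in the result was not tested.

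**Figure D4:**
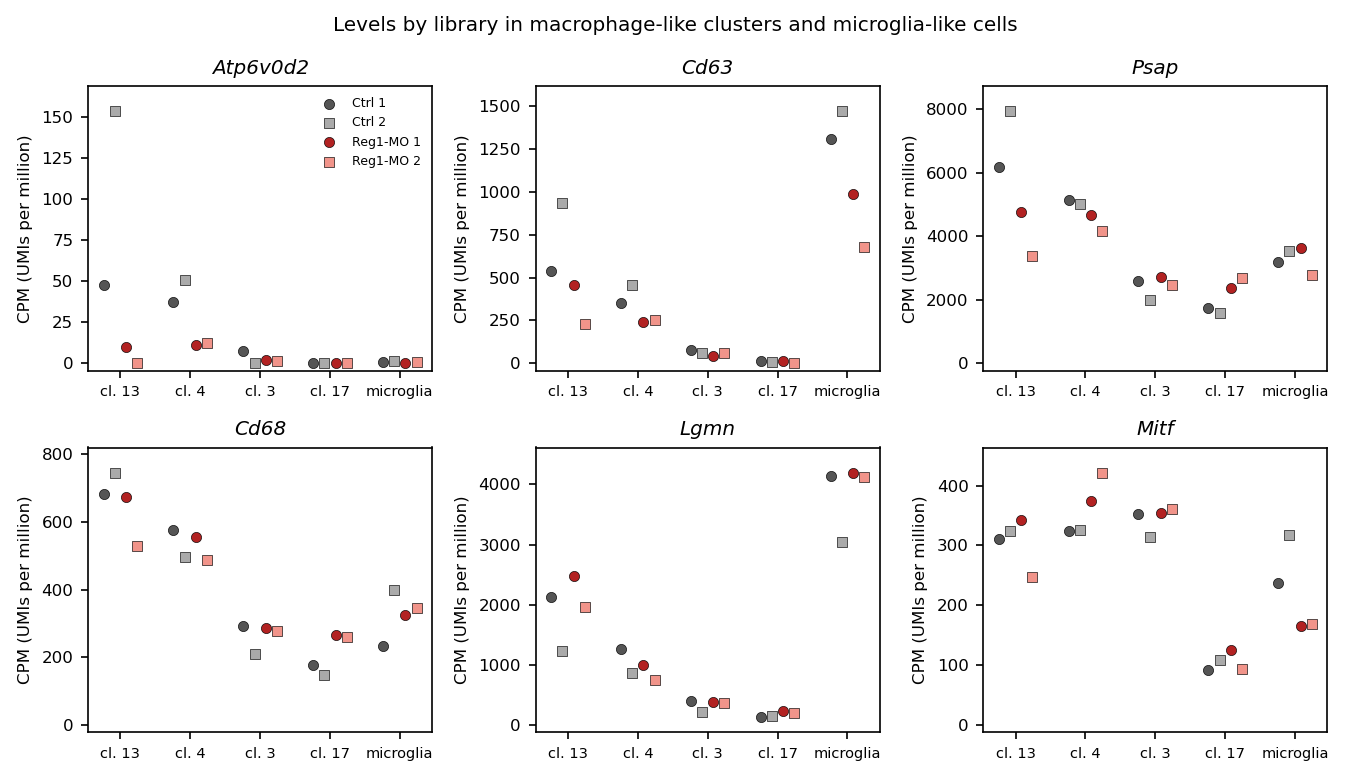
CPM (y axis) of Atp6v0d2, Cd63, Psap, Cd68, Lgmn and Mitf in each library (symbols) for the 4 macrophage-like clusters (13 Gpnmb, 4 Arg1/C1q, 3 Arg1/Cxcl9, 17 Vcan) and microglia-like cells. Psap lies lower with Reg1-MO in cluster 13 (4754 and 3369 CPM) and higher in cluster 17 (2371 and 2679 CPM), and Atp6v0d2 lies lower with Reg1-MO in clusters 13 and 4.

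Whether the clusters responded differently was tested as an interaction of cluster and treatment, with library as a block. For Psap the Vcan effect minus the Arg1/C1q effect was 0.74 ± 0.12 (edgeR adjusted p = 0.0671) and minus the Gpnmb effect 1.44 ± 0.24 (edgeR adjusted p = 0.0757). For Cd68 these were 0.68 ± 0.15 (edgeR adjusted p = 0.115) and 0.98 ± 0.22 (edgeR adjusted p = 0.146). For Lgmn they were 0.76 ± 0.22 (edgeR adjusted p = 0.222) and 0.13 ± 0.26 (edgeR adjusted p = 0.885), and in the Gpnmb cluster Lgmn had a log2 fold change of 0.36 ± 0.27 (edgeR adjusted p = 0.567). None of the 29 genes was called in either test (0.0372% and 0.106% of all genes were). DESeq2 was not run for interactions.

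In microglia-like cells 22 of 28 genes tested were below 0 (median -0.26; all genes 0.01, with 50.8% above 0). On normalised CPM 10 were lower in both Reg1-MO libraries (21.1% of all genes) and 0 higher (21.8%). With edgeR 0 were called (0% of 11690 genes), 1 was lower at an unadjusted p under 0.05 (4.35%), and DESeq2 gave 0 calls. That gene was Mitf, at 238 and 318 CPM in Ctrl and 165 and 169 CPM with Reg1-MO (-0.73 ± 0.25, edgeR adjusted p = 0.55). Cd63 was at 1310 and 1469 CPM, then 985 and 680 CPM (-0.73 ± 0.32, edgeR adjusted p = 0.563). Mcoln1, the lysosomal cation channel, was at 14.8 and 23.1 CPM, then 12.2 and 13.1 CPM (-0.61 ± 0.28, edgeR adjusted p = 0.563), and Npc1 at 55.4 and 72.2 CPM, then 46.0 and 49.3 CPM (-0.43 ± 0.22, edgeR adjusted p = 0.591). None of these 4 overlapped, and Ctrl 2 was highest in each.

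Ctrl 2 microglia-like cells came mostly from their own cluster, and without that library the median was -0.08. Without Reg1-MO 2 it was -0.09. Within the cluster that the other libraries shared, where Ctrl 2 had 31 cells, 18 of 28 genes tested were below 0 (5356 of all 11224 genes). The median there was -0.065 (0.021 over all genes), and -0.203 to 0.102 with a library left out. Mitf in that cluster was at 231 and 276 CPM in Ctrl and 163 and 168 CPM with Reg1-MO (-0.58 ± 0.25, edgeR adjusted p = 0.832). With the mixed-marker clusters added it gave -0.25 (edgeR adjusted p = 0.728). The microglia markers summed to 3536 and 2692 CPM in Ctrl and 4336 and 6162 CPM with Reg1-MO, the neutrophil markers to 611 and 784 CPM, then 290 and 455 CPM, and their part in the result was not tested. The Mitf effect in microglia-like minus that in macrophage-like cells was -1.03 ± 0.27, with an edgeR adjusted p = 0.234. For Atp6v0d2 it was 2.74 ± 0.60 (edgeR adjusted p = 0.219), with the microglia-like level at background. None of the 29 was called in this interaction (0.00736% of 13592 genes), and these 2 had an unadjusted p under 0.05 (12% of all genes). Without Ctrl 1, 2 were called (7.97% of all genes).

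In neutrophil-like cells 1 of 28 genes tested was called. Cd68 rose from 12.7 and 11.5 CPM in Ctrl to 18.9 and 20.5 CPM with Reg1-MO, from 199, 223, 48 and 151 UMIs (log2 fold change 0.87 ± 0.18, edgeR adjusted p = 0.0495), where 0.942% of 10718 genes were called higher. T-like cells, which should lack Cd68, held 9.1 and 4.81 CPM, then 7.85 and 6.21 CPM, at median depths of 7002 to 7333 UMIs per cell against 4737 to 6302 in neutrophil-like cells. The call was lost with DESeq2 (adjusted p = 0.0886), with RLE normalisation (edgeR adjusted p = 0.0503), with clusters built from lysosomal genes as well (edgeR adjusted p = 0.051), without Ctrl 2 (edgeR adjusted p = 0.143) and without Reg1-MO 2 (edgeR adjusted p = 0.228). Of the 10 microglia markers, 2 were called higher, and their sum was 16.5 and 20.9 CPM in Ctrl and 44.8 and 32.1 CPM with Reg1-MO; its part in the result was not tested. Over the 28 genes the median was 0.03, with 15 above 0 (47.5% of all genes).

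Lgmn in neutrophil-like cells was at 13.7 and 7.76 CPM in Ctrl and 30.6 and 16.96 CPM with Reg1-MO (1.20 ± 0.31, edgeR adjusted p = 0.1). T-like cells had like values, at 15.3 and 9.26 CPM, then 26.4 and 15.98 CPM, close to the neutrophil-like values and lower than them in both Reg1-MO libraries. Tfeb was at 26.1 and 24.5 CPM, then 38.9 and 30.2 CPM (0.56 ± 0.15, edgeR adjusted p = 0.115), and Mitf at 15.6 and 19.7 CPM, then 37.3 and 21.4 CPM (0.79 ± 0.22, edgeR adjusted p = 0.12). Neither factor overlapped between groups. On normalised CPM, 2366 of all 10718 genes also lay higher without overlap, and 2702 lower.

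In conventional dendritic-like cells 19 of 28 genes tested were below 0 (median -0.125; 50.3% of all genes above 0). With edgeR 0 were called (0% of 9453 genes), 2 were higher at an unadjusted p under 0.05 (5.88%), and DESeq2 gave 0 calls. Without Ctrl 1 edgeR called 1 (7.01% of all genes). Those 2 were Atp6v0c, at 544 and 440 CPM in Ctrl and 614 and 724 CPM with Reg1-MO (0.49 ± 0.17, edgeR adjusted p = 0.35), and Cd68, at 99.5 and 108 CPM, then 119 and 177 CPM (0.56 ± 0.23, edgeR adjusted p = 0.38). Psap was at 1699 and 1895 CPM, then 2235 and 2057 CPM, and Glb1, lysosomal beta-galactosidase, at 27.1 and 38.3 CPM, then 21.3 and 19.2 CPM. None of these 4 overlapped. On normalised CPM, 2361 of all 9453 genes also lay higher without overlap, and 2167 lower.

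In T-like cells, which are not phagocytes, 0 of 29 genes were called with edgeR (0% of 12388 genes), 3 were higher at an unadjusted p under 0.05 (5.12%), and DESeq2 gave 0 calls. Those 3 were Atp6v0c, at 183 and 157 CPM in Ctrl and 219 and 209 CPM with Reg1-MO, Atp6ap1, an accessory pump subunit, at 38.7 and 39.7 CPM, then 45.1 and 47.2 CPM, and Lgmn, with the values given above. Scarb2 was at 44.0 and 44.9 CPM, then 50.3 and 52.7 CPM. None of these 4 overlapped between groups, and edgeR adjusted p ran from 0.453 to 0.488. On normalised CPM, 2772 of all 12388 genes also lay higher without overlap, and 2782 lower. The 10 microglia markers in T-like cells summed to 17.9 and 18.1 CPM in Ctrl and 32.7 and 25.1 CPM with Reg1-MO, and the 12 neutrophil markers to 631 and 1217 CPM, then 225 and 546 CPM; their part in these values was not tested.

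Further lysosomal genes were counted from separate lists. In macrophage-like cells none of 12 cathepsins, 23 hydrolases and cofactors, 16 membrane and sorting proteins, 12 other V-ATPase subunits and 10 genes of the MiT/TFE and nutrient-sensing pathway was called with edgeR. At an unadjusted p under 0.05, 3, 8, 3, 0 and 1 of them were lower (9.35% of all genes) and 1, a membrane or sorting gene, was higher (8.71%). Sort1, which encodes the sorting receptor sortilin, was at 36.1 and 66.8 CPM in Ctrl and 13.9 and 18.7 CPM with Reg1-MO (-1.64 ± 0.33, edgeR adjusted p = 0.229). The smallest p of the other lists belonged to Ctsk (-1.48 ± 0.33), Arsb (-0.72 ± 0.16), Atp6v0a1 (-0.23 ± 0.11) and Rragc (-0.43 ± 0.13), with edgeR adjusted p from 0.229 to 0.327.

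In the Vcan cluster genes of these lists changed in both directions. There 3.44% of 9370 genes were called higher and 3.28% lower, and the neutrophil and microglia markers shifted as given above. Of 9 cathepsins tested, Ctsc, Ctss and Ctsz rose, and Ctsc, dipeptidyl peptidase I, went from 876 and 864 CPM to 1247 and 1310 CPM (0.52 ± 0.09, edgeR adjusted p = 0.0048). Gm2a, a lipid-binding cofactor of ganglioside breakdown, rose from 295 and 264 CPM to 377 and 389 CPM (0.42 ± 0.10, edgeR adjusted p = 0.0338). M6pr, a mannose 6-phosphate receptor, rose (0.56 ± 0.14, edgeR adjusted p = 0.0296). Sort1 fell from 85.6 and 99.8 CPM to 39.9 and 58.7 CPM (-0.94 ± 0.18, edgeR adjusted p = 0.00957), and Atp6v0a1 from 125 and 140 CPM to 86.8 and 49.8 CPM (-1.03 ± 0.20, edgeR adjusted p = 0.00874). In neutrophil-like cells Ctsc rose from 22.0 and 19.6 CPM to 51.9 and 31.5 CPM (1.08 ± 0.20, edgeR adjusted p = 0.0416), where 0.942% of 10718 genes were called higher.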

How the data were processed

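Single-cell libraries (10x Genomics 3' kit) of CD45+ spinal cord cells were used. The deposited matrices hold raw UMI counts per gene and barcode. They come from Cell Ranger 5.0.1, per the file headers. Seurat 4.0 and mm10 are listed in the submitters' processing notes.

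Barcodes with at least 500 UMIs and 200 genes and no more than 10% mitochondrial UMIs were used, and the top Scrublet scores were dropped per library (0.8% per 1000 barcodes). Clustering left out lysosomal genes (scanpy 1.11.5; 3000 variable genes, 40 components, 15 neighbours, Leiden resolution 1.0). A cluster was named at a marker score of at least 0.5 with 3 or more markers detected. The best score of another lineage had to be under 0.5, and its markers no more frequent among the leading genes. Shallow clusters with no own marker among their leading genes stayed unnamed, a rule added after the clusters were seen.

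For each class, counts were added up by library (25 or more cells each), filtered with filterByExpr (minimum count 10), TMM-normalised and tested with edgeR 4.0.16 (R 4.3.3), Benjamini-Hochberg adjusted over all genes tested. Reg1-MO was set over Ctrl, 2 libraries each. Printed CPM are not TMM-scaled, and UMI counts are not divided by gene length. Free RNA was not removed. DESeq2 1.42.0, other normalisation, filters, clusterings and left-out libraries were alternatives. Tested on simulated counts, 4-fold changes were recovered for 98% of changed genes in macrophage-like cells (13126 genes), and 2-fold changes for 56% there, 31% in microglia-like (11690 genes), 46% in conventional dendritic-like (9453 genes), 82% in T-like (12388 genes) and 91% in neutrophil-like cells (10718 genes). These rates describe the simulated counts only. In the measured macrophage-like libraries Atp6v0d2 had a log2 fold change of -3.20 ± 0.69 and was not called (edgeR adjusted p = 0.229).

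The members and lists were chosen with earlier results of these data known. Genes named with values are those called, the 4 with the smallest p per class, the highest of each role in macrophage-like cells and the paralog pairs; Lipa in macrophage-like cells, Cd63 and Psap within clusters, and genes named between classes and in the Acod1 cluster, were chosen after their values were seen. A result for 1 gene of the further lysosomal lists is not reported here.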

Additional observations from a re-analysis of the deposited data

How the results depend on the processing

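Of the 29 genes, macrophage-like cells had 0 called, against 2 in DESeq2, 6 with no filter on low counts and 0 to 9 when each library was left out, with 9 without Ctrl 1 and 1 without Ctrl 2. Without the Gpnmb cluster, chosen after seeing the data, their median was -0.101 in place of -0.274 and their share difference 0.0488 in place of -0.29 percentage points. Neutrophil-like cells had 1 called, 0 with RLE or with clusters made from lysosomal genes too, 3 with no filter, and 1 to 2 with a library left out; their median of 0.03 became 0.048 (RLE), 0.046 (DESeq2), -0.005 (no filter), 0.006 (lysosomal genes in the clustering) and -0.026 to 0.095 with a library left out. Conventional dendritic-like cells had 0 to 1 and the interaction 0 to 2 called with a library left out; no filter gave 2 for the interaction and 1 for T-like cells, whose median ran from 0.00 to 0.127 with a library left out. In single clusters, whose alternatives were added after seeing the data, left-out libraries gave 0 to 7 called in the Arg1/Cxcl9 cluster, 0 to 2 in the Arg1/C1q, 0 to 5 in the Gpnmb and 1 to 3 in the Vcan cluster; no filter gave 1, 2 and 8 in the first 3, and DESeq2 gave 2 in the Arg1/C1q cluster. Calls over all genes moved as well, so these counts are not particular to the 29 genes. Over alternatives that kept all libraries, the replicate block among them, all-gene calls reached 2067 in macrophage-like cells. They reached 762 in neutrophil-like and 544 in T-like cells. In single clusters they reached 714 (Arg1/Cxcl9), 779 (Arg1/C1q), 1041 (Gpnmb) and 1042 (Vcan). The cause was not tested. The order of classes by share held in 4 of 4 libraries without doublet removal and with lysosomal genes in the clustering. In Ctrl 2, microglia-like cells fell below macrophage-like cells with the mixed-marker clusters added, and also without the Vcan cluster.

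The labels tie same-numbered libraries by a number only and do not say whether they share a batch. Both number 1 libraries held more UMIs (137995955 in Ctrl, 174552218 in Reg1-MO) than the number 2 libraries (94577206 and 75472324). Deviations of same-numbered libraries correlated by 0.277 in microglia-like, 0.0143 in macrophage-like and 0.017 in neutrophil-like cells. The correlation was 0.0485 in conventional dendritic-like and 0.122 in T-like cells. In the macrophage-like clusters it ran from -0.0467 (Gpnmb) to 0.136 (Arg1/C1q). A shared batch was not tested. With the replicate number as a block, 0 of the 29 genes were called in macrophage-like and microglia-like cells, 4 in neutrophil-like cells (median 0.016), 2 in the Arg1/C1q cluster and 3 in the Vcan cluster.

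Counts over all genes moved further. Called genes ran from 0 to 2405 in macrophage-like cells, 0 to 587 in microglia-like, 132 to 762 in neutrophil-like, 0 to 707 in conventional dendritic-like and 0 to 544 in T-like cells over the alternatives, and from 202 to 1042 in the Vcan and 6 to 779 in the Arg1/C1q cluster. At a limit of 5% mitochondrial UMIs, a cluster with 465 Ctrl 2 cells scored highest on microglia markers (1.884). It stayed unnamed because its B/plasma score was 0.5417, which left 8 microglia-like cells in Ctrl 2. That is under the 25 needed, and resolution 0.6 gave no conventional dendritic-like class, so these were not run. The Gpnmb cluster of Reg1-MO 2 rests on 48 cells, which limits Atp6v0d2 there.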
